A study of Mus musculus with 20 samples.

Results

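The transcript difference between hearts that carry the tetracycline transactivator (tTA) and FVBN hearts was estimated over 19 of the 20 arrays of the series, with doxycycline (Doxy) as a second term of the model. The members are the 13 arrays whose title begins with tTA and the 6 arrays whose title names FVBN, whether or not Doxy was given. The remaining array, titled Cardiac tTA expression, has neither a number nor a treatment in its title and entered no comparison. The additive model asks which transcripts differ by genotype by an amount common to arrays with and without Doxy.

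Each array was hybridised with total RNA from mouse cardiac ventricle. FVBN control was represented by 2 arrays (8177 and 8182), and FVBN + Doxy by 4 arrays (8337, 8338, 8340 and 8341). The genotype labelled tTA was represented by 8 arrays without Doxy (7288, 7292, 7294, 7308, 7310, 7311, 9310 and 9322) and by 5 arrays with Doxy (7399, 7424, 7485, 7486 and 7488). According to the labels the mice are FVBN, the wild type serves as the comparison and the keywords name the alpha MHC promoter, so the transgene is taken here to be driven by it. Dose and length of Doxy treatment, transgenic line, responder transgene, sex and age are not stated in the labels. Nothing in the labels says whether arrays with different numbers represent different mice, so all p-values describe the spread among these samples, which may be technical in part. The tTA array numbers form a block below the FVBN numbers (7288 to 7488) and a pair above them (9310 and 9322), and no block of numbers holds both genotypes. The labels do not say what the numbers stand for, and a difference that goes with them cannot be told apart from genotype.

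The tTA protein joins the DNA-binding repressor of a bacterial tetracycline resistance operon to a viral activation domain. It activates promoters that hold tet operator sequences, and Doxy releases it from them, which is the basis of gene switches that are on until the drug is given. Alpha myosin heavy chain, the product of Myh6, is the main myosin of the adult mouse ventricle, and its promoter directs transgenes to cardiomyocytes, the contractile cells of the heart.

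Intensities were quantile normalized and put on the log2 scale, and the brightest 60% of probe sets were tested in limma, 7453 probe sets for 5658 genes. A probe set is a group of short probes for a transcript, and a difference was called at a Benjamini-Hochberg adjusted p below 0.05 over all tested probe sets. Differences are log2 values, tTA minus FVBN, with the standard error (SE) of the fit, and folds are their exponent. With 2 to 8 arrays a group, the estimate gave the arrays without Doxy 41.86% of the weight and those with Doxy 58.14%. Median deposited intensity lay between 60.74 and 62.45 over the 19 arrays. Ventricular cardiomyocyte genes were among the brightest on the arrays, with Myl2, the ventricular regulatory light chain, at 12.51 to 12.62 on FVBN arrays and 12.40 to 12.62 on tTA arrays. The atrial genes Myl7 and Bmp10 were too dim to be tested. Sln, also an atrial gene, was tested, at 5.44 to 5.56 on FVBN arrays and 5.36 to 5.73 on tTA arrays. Of the 15 atrial markers with a probe set 9 were tested, so dimness did not hold for the whole list. The transgene has no probe set in the annotation used, so the genotype labels could not be checked against it. Affymetrix arrays carry control probe sets for both ends of beta-actin, and the log2 of the 3' signal over the 5' signal, which rises as RNA breaks down, was lower on tTA arrays (0.338 ± 0.0931, SD, n = 13) than on FVBN arrays (0.522 ± 0.0649, n = 6). The difference adjusted for Doxy was -0.18 (two-sided exact permutation test with labels permuted within Doxy strata, p = 0.000353, adjusted over the 2 control ratios p = 0.000706). The corresponding Gapdh ratio differed by 0.00582 (exact permutation p = 0.858). Which control ratio better reflects the RNA was not tested. The beta-actin ratio was also added to the model, and its effect is given beside the results below. Because the ratio differs by genotype, that model cannot fully separate the ratio from genotype. A call lost in it need not mean a smaller difference.

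Of the 7453 probe sets, 653 were called (8.76%), 363 higher in tTA (4.87%) and 290 lower (3.89%). They covered 565 genes, 319 higher and 246 lower, and no gene had calls in both directions. At an unadjusted p below 0.05 there were 1535, 826 higher and 709 lower. The differences were mostly small. Their median size was 0.20 on the log2 scale, 468 of the 653 were under 0.25, 31 exceeded 0.5 and 6 exceeded 1. The median over all tested probe sets was -0.002. All 13 tTA arrays lay on the called side of the FVBN mean of their own Doxy stratum for 412 of the 653 called probe sets. These were selected by the same difference and the share over all tested probe sets was not counted, so this is a description. All 13 lay outside the FVBN range in 100 of the 7453 probe sets (1.34%), 58 above (0.778%) and 42 below (0.564%), and 98 of these were called. Within each Doxy stratum taken separately, 157 had no overlap in the same direction in both (2.11%).

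**Figure D1:**
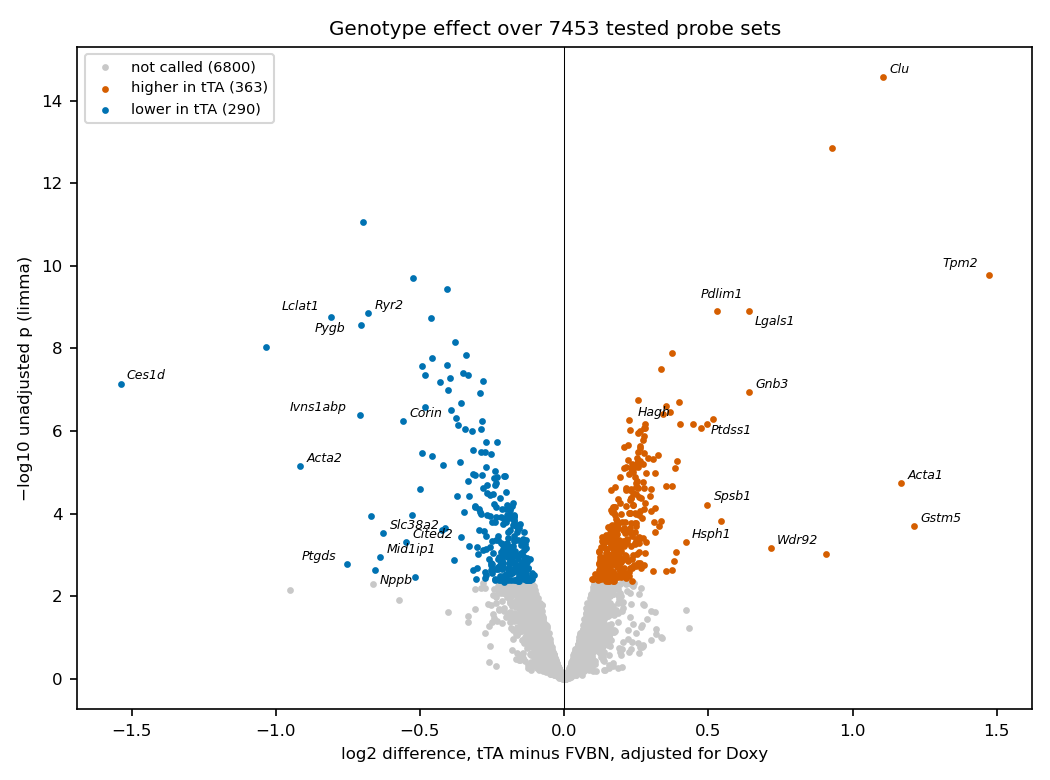
Each point is 1 of the 7453 tested probe sets, with the log2 difference (tTA minus FVBN, adjusted for Doxy) on the x axis and minus log10 of the unadjusted limma p on the y axis; orange and blue mark the 363 higher and 290 lower calls. Clu stands highest on the y axis, Tpm2 farthest right and Ces1d farthest left, while most called points lie within 0.25 of 0.

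Several of the largest differences were in genes of actin filaments. Tpm2, which encodes beta-tropomyosin, a rod that lies along the thin filament, was 2.78-fold higher in tTA. Acta1, the skeletal muscle alpha-actin gene, which is expressed in the fetal heart and again in many hypertrophic hearts, was 2.25-fold higher. Acta2, the smooth muscle alpha-actin gene, moved the other way and was 1.89-fold lower. Lgals1, the gene of the sugar-binding protein galectin-1, and Pdlim1, an actin-associated PDZ and LIM domain gene, rose by less.

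The Tpm2 level on FVBN arrays had a lowest, median and highest log2 value of 6.41, 6.53 and 7.12, against 7.88, 8.05 and 8.53 on tTA arrays. The genotypes did not overlap, and the FVBN array nearest to tTA belonged to FVBN + Doxy. The difference was 1.47 ± 0.12 (SE, limma adjusted p = 2.88e-07), with 1.73 in the arrays without Doxy and 1.29 in those with it. A further Tpm2 probe set, at a mean level of 4.94, was below the tested brightness.

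For Acta1 the FVBN values were 9.20, 10.02 and 10.39, and the tTA values were 10.41, 11.02 and 11.68. The genotypes did not overlap, but only narrowly, and both FVBN control arrays lay below all 4 FVBN + Doxy arrays. The difference was 1.17 ± 0.20 (limma adjusted p = 0.00116), 1.68 without Doxy and 0.80 with it. With the beta-actin ratio in the model it was 0.71 and no longer called (limma adjusted p = 0.107). Actin genes are close copies of each other in coding sequence, so how far an actin probe set reads a single gene is uncertain.

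Acta2 ran from 8.22 over a median of 8.67 to 8.85 on FVBN arrays, and from 7.19 over 7.59 to 8.52 on tTA arrays. The genotypes overlapped through 1 tTA + Doxy array, 7485, which lay above the lowest FVBN array. The difference was -0.91 ± 0.14 (limma adjusted p = 0.000604), -1.27 without Doxy and -0.66 with it. It was -0.64 and not called with the beta-actin ratio in the model (limma adjusted p = 0.0674).

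Lgals1 read 9.35, 9.58 and 9.66 on FVBN arrays and 9.90, 10.22 and 10.39 on tTA arrays. Pdlim1 read 8.32, 8.51 and 8.65 against 8.77, 8.97 and 9.24. Neither gene had an overlap between genotypes. The differences were 0.64 ± 0.07 and 0.53 ± 0.05 (both limma adjusted p = 1.14e-06), and both kept their call with the beta-actin ratio in the model. A dimmer Pdlim1 probe set gave -0.07 ± 0.06 (limma adjusted p = 0.590), so the probe sets of this gene differ.

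In the list of cytoskeleton and costamere genes, which includes these genes apart from Pdlim1, 9 of 49 tested genes were higher and 6 lower, with a median difference of -0.0178. Over all 5658 genes, each represented by its brightest probe set, 5.18% were higher, 3.99% were lower and the median was -0.000479. Together 9.17% were called, and these shares are the background for each list below. Lists and their members were chosen with earlier results of these data known, so a list share set beside the background is a description. Myl9, the regulatory light chain of smooth muscle myosin, was higher by 0.40 ± 0.05 (limma adjusted p = 4.6e-05), and the annexin gene Anxa5 by 0.22 ± 0.05 (limma adjusted p = 0.0119). Lmna, the gene of the nuclear lamins A and C, rose by 0.26 ± 0.05 (limma adjusted p = 0.00141), with a further probe set at 0.05 that was not called. The lower genes included Csrp2, a LIM domain gene, at -0.32 ± 0.05 (limma adjusted p = 0.000133), and Fhl2, a Z-disc LIM protein gene of cardiomyocytes, at -0.31 ± 0.06 (limma adjusted p = 0.000843). The lower count fell to 3 without any of the arrays 8182, 8337, 8341, 7485 and 7488, and to 2 with the beta-actin ratio in the model, while the higher count stayed between 7 and 10 in these settings.

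**Figure D2:**
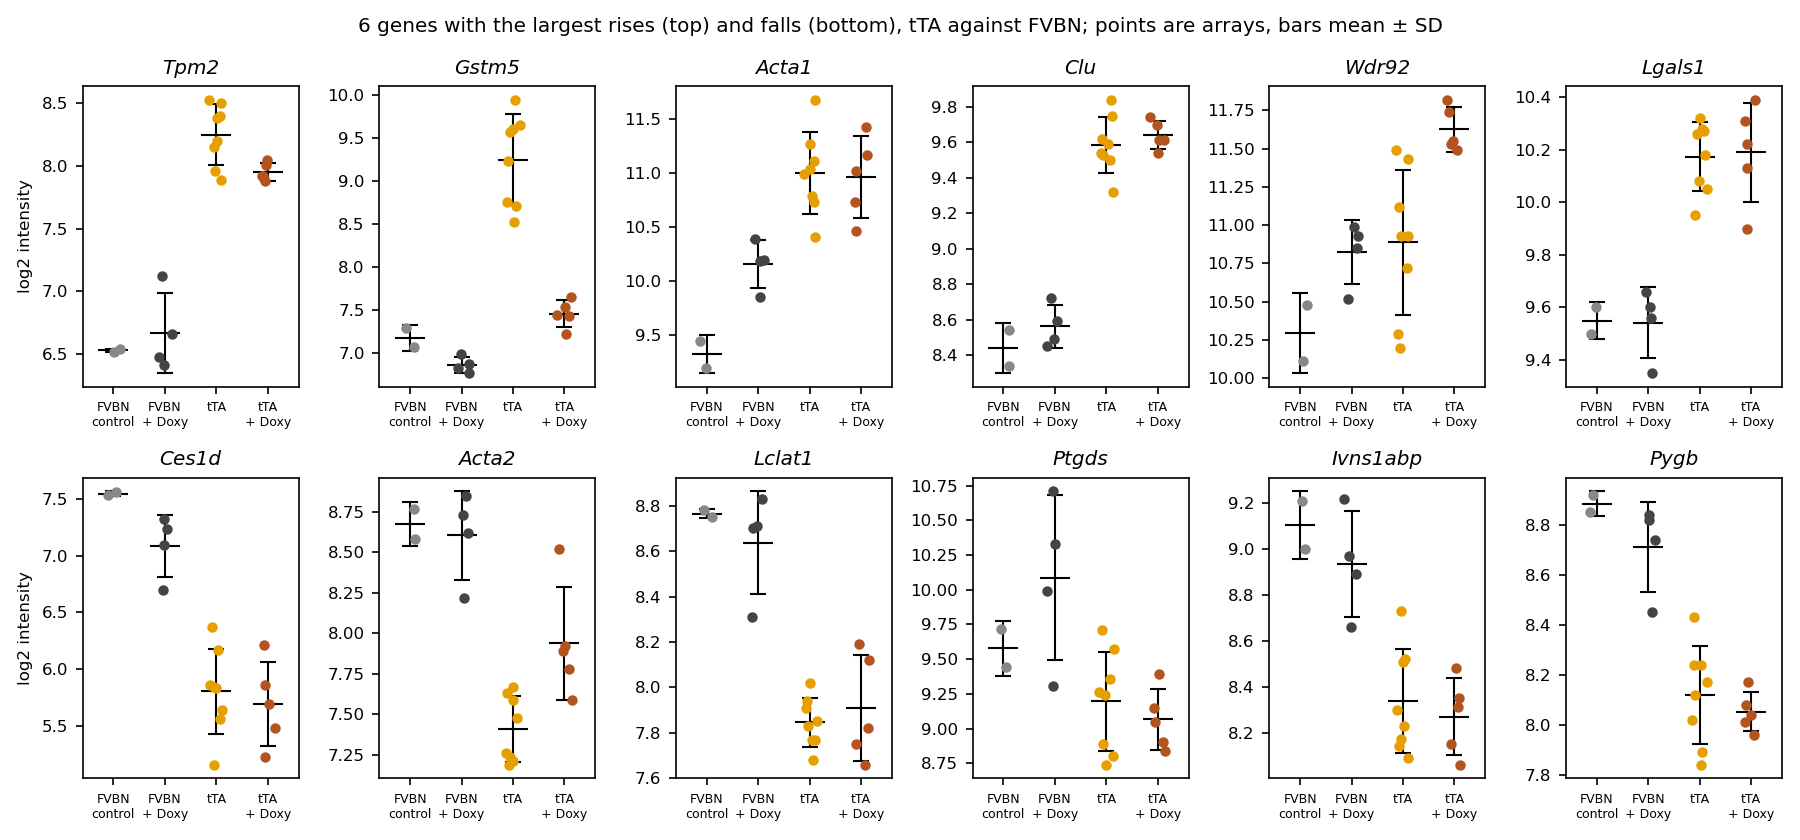
Each panel shows 1 gene, with normalized log2 intensity on the y axis and the 4 groups on the x axis; points are arrays and bars are the mean ± SD of the group (n = 2, 4, 8 and 5). The upper row holds the 6 largest rises and the lower row the 6 largest falls; Tpm2, Clu and Lgals1 separate the genotypes with and without Doxy, while Gstm5 is high mainly in tTA without Doxy.

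Actin and smooth muscle genes are textbook targets of serum response factor, which binds the CArG box, a motif with an AT-rich core. The bases before the start of 4 of the genes above are shown because they moved in opposite directions, 3 higher and Acta2 lower. Each line gives the 180 bases upstream of the RefSeq start (GRCm38.p6), 5' to 3' on the gene's strand, in lower case. Capitals mark a CArG box, a near match whose core has 1 base of the other kind, or a TATAAA, searched on the gene's strand. Acta1 lies at chr8:123894776-123894955 on the minus strand, Myl9 at chr2:156775284-156775463 on the plus strand, Tpm2 at chr4:43523555-43523734 on the minus strand and Acta2 at chr19:34255374-34255553 on the minus strand.
Acta1: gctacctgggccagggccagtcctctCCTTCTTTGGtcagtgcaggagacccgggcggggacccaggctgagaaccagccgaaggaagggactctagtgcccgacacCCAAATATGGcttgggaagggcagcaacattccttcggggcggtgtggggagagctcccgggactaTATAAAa
Myl9: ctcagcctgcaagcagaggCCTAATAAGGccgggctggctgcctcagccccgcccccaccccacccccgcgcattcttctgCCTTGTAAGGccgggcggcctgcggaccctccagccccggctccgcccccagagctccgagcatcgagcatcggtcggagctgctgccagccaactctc
Tpm2: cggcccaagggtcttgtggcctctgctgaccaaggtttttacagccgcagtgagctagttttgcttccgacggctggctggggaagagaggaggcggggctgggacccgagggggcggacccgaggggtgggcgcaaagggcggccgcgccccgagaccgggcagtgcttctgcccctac
Acta2: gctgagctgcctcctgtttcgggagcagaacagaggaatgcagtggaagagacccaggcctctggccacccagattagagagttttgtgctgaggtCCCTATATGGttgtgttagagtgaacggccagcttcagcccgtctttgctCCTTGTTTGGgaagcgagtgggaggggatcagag
Acta1 holds a CArG box that begins 73 bases before the start, a near match at 154 and a TATAAA at 7. Myl9 holds a CArG box at 161 and a near match at 99. The Acta2 window holds no exact CArG box but near matches at 84 and 34, and the Tpm2 window holds none of the motifs.

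A search of the 250 bases before each start found an exact CArG box in 1.47% of the 32851 RefSeq promoters and in 1.35% of the 5837 promoters of tested genes. It was present in 3 of 345 promoters of genes called higher (0.87%) and in 7 of 258 promoters of genes called lower (2.71%). Near matches were found in 7.24% of all promoters, 5.8% of those of higher genes and 7.75% of those of lower genes. The motif and its near match read the same way on both strands, so the search covered both. The core of the tet operator, CTATCANTGATAG, which is its own reverse complement, was in 0 of the 32851 windows that also take in the first bases after the start. These counts describe letters in fixed windows and say nothing of binding.

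Clu, which encodes clusterin, a secreted chaperone that binds misfolded proteins, had the smallest p of all probe sets. Its FVBN values were 8.34, 8.52 and 8.72 and its tTA values 9.32, 9.61 and 9.84, with a wide gap between the genotypes. The difference was 1.10 ± 0.06 (limma adjusted p = 2.01e-11), or 2.15-fold, and was nearly equal without Doxy (1.15) and with it (1.08). Another Clu probe set gave 0.93 ± 0.06 (limma adjusted p = 5.19e-10).

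Among chaperone and heat shock genes, 6 of 38 tested genes were higher in tTA and 0 were lower (15.8% called, against 9.17% over all tested genes), with a median of 0.0176. The rises besides Clu were Hsph1, a partner of the Hsp70 chaperones (0.42 ± 0.10, limma adjusted p = 0.0117), the Hsp90 gene Hsp90aa1 (0.38 ± 0.10, limma adjusted p = 0.0242), and Stip1, which links Hsp70 to Hsp90 (0.32 ± 0.06, limma adjusted p = 0.000767). The small heat shock gene Hspb2 and the chaperonin subunit gene Cct7 rose by 0.18 and 0.14. Hsph1 ran from 7.17 to 7.48 on FVBN arrays and from 7.25 to 8.19 on tTA arrays, so the genotypes overlapped. With the beta-actin ratio in the model 2 chaperone genes stayed called, and Hsph1 (limma adjusted p = 0.111) and Hsp90aa1 (limma adjusted p = 0.206) did not. Without array 7486, 3 genes of the list were called lower.

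Of the ubiquitin and proteasome genes, 3 of 42 were higher, none was lower and the median was 0.0397. With 7.14% called, against 9.17% over all tested genes, the list lay below the background. The proteasome genes Psma5 and Psmc5 rose by 0.13 ± 0.04 and 0.12 ± 0.04 (limma adjusted p = 0.0366 and 0.0398), and none of the 3 calls was left with the beta-actin ratio in the model. The count was 1 without any of the arrays 8177, 8341, 7486 and 7488.

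Gstm5, a glutathione S-transferase gene of the mu class, was the only gene with a called difference between the genotype effects with and without Doxy. At the probe set with the larger difference, FVBN values were 6.76, 6.93 and 7.28 and tTA values 7.22, 8.70 and 9.94. All 8 tTA arrays without Doxy, at 8.52 and above, lay over every FVBN array, while the 5 tTA + Doxy arrays lay between 7.22 and 7.64, next to the FVBN range. The pooled difference was 1.21 ± 0.26 (limma adjusted p = 0.00647), 2.07 without Doxy and 0.60 with it.

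At a brighter Gstm5 probe set the pooled difference was 0.91 ± 0.23 (limma adjusted p = 0.0184), 1.85 without Doxy and 0.23 with it. This was the probe set called in the interaction test, 1 of 7453 (0.0134%), at -1.61 with minus without Doxy (limma interaction adjusted p = 0.0108). The interaction test called 0 probe sets without array 8177, 1 of the 2 FVBN control arrays, and 0 when all probe sets were tested. It called 2 to 4 without any of the arrays 8340, 7311, 9322 and 7424. The pooled call of the brighter probe set was lost without array 8177 or 8182 and with the beta-actin ratio in the model (limma adjusted p = 0.125). The other Gstm5 probe sets gave 0.02 and 0.01 and were not called. Mu-class genes resemble each other, and these probe sets may read more than Gstm5.

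The glutathione and antioxidant list had 4 higher and 3 lower genes among 38 tested, with a median of -0.0467. Msrb1, a methionine sulfoxide reductase gene, rose from 9.36 to 9.63 on FVBN arrays to 9.67 to 10.05 on tTA arrays, without overlap (0.37 ± 0.05, limma adjusted p = 7.04e-05). Gpx3, a secreted glutathione peroxidase gene, was higher by 0.28 ± 0.07 (limma adjusted p = 0.0175) and lost its call without array 8177 or 8182 and with the beta-actin ratio in the model. Sod2, the mitochondrial superoxide dismutase gene, fell by 0.18 ± 0.05 (limma adjusted p = 0.0331). Without array 8182 the list counted 1 higher and 0 lower, without 8177 2 higher and 1 lower, and without 7399 or 7424 it counted 5 or 1 lower. It counted 2 higher and 0 lower, so without Sod2, with the beta-actin ratio in the model.

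Genes of calcium handling and of electrical coupling were called lower where they were called at all. Of 18 tested calcium handling genes 6 were lower and none higher (33.3%, median -0.0367). Of 25 tested ion channel and coupling genes 6 were lower and none higher (24%, median -0.0793). Over all tested genes 3.99% were lower. Cacna1c belongs to both lists. Ryr2, the channel through which the sarcoplasmic reticulum releases calcium, fell 1.60-fold. Gja1, the gene of connexin 43, which forms the gap junctions between ventricular myocytes, fell 1.44-fold.

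Ryr2 read 9.22, 9.48 and 9.69 on FVBN arrays and 8.58, 8.81 and 8.98 on tTA arrays, without overlap. Its difference was -0.68 ± 0.07 (limma adjusted p = 1.14e-06), -0.82 without Doxy and -0.58 with it. Gja1 read 10.74, 10.92 and 10.98 against 10.24, 10.35 and 10.56. That range too left no overlap, and the difference was -0.52 ± 0.05 (limma adjusted p = 2.88e-07), with -0.67 ± 0.14 at a dimmer probe set (limma adjusted p = 0.00432). Both genes kept their call with the beta-actin ratio in the model.

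Slc8a1, the sodium-calcium exchanger gene, lay between 9.0 and 9.34 on FVBN arrays and between 8.56 and 8.98 on tTA arrays (-0.38 ± 0.05, limma adjusted p = 8.84e-05). Cacna1c, which encodes the pore subunit that lets calcium enter at each beat, ran from 8.14 to 8.50 and from 7.89 to 8.20 (-0.34 ± 0.05, limma adjusted p = 0.000125). The values of Slc8a1 did not overlap between genotypes and those of Cacna1c did. Sri, the gene of the calcium sensor sorcin, fell by 0.30 ± 0.06 (limma adjusted p = 0.00336). The calcium pump gene Atp2a2, at -0.07 ± 0.06 (limma adjusted p = 0.566), was not called.

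Pkp2, which encodes plakophilin 2 of the desmosome, the junction that ties cardiomyocytes together, was at -0.42 ± 0.07 (limma adjusted p = 0.000558). Abcc9, the regulatory subunit of the potassium channel that senses ATP, was at -0.50 ± 0.09 (limma adjusted p = 0.00147), and the potassium channel gene Kcnk3 at -0.30 ± 0.08 (limma adjusted p = 0.0185). The Pkp2 values did not overlap between genotypes, and those of Abcc9 and Kcnk3 did. With the beta-actin ratio in the model 4 calcium handling genes and 2 coupling genes were called lower, and Pkp2 (limma adjusted p = 0.0812) and Abcc9 (0.0818) were not among the called. Leaving out single arrays gave 5 to 6 and 5 to 7 lower genes.

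Of 21 tested sarcomere and Z-disc genes 1 was higher and 2 lower (14.3% called, against 9.17% over all tested genes), with a median of -0.0232. Mybpc3, the gene of cardiac myosin binding protein C, read 11.74 to 12.02 on FVBN arrays and 12.07 to 12.24 on tTA arrays, without overlap (0.26 ± 0.04, limma adjusted p = 0.000133). Near the top of the scale quantile normalization gives arrays shared values, such as 12.07 and 12.12 on several tTA arrays, so small differences there are coarse. The Mybpc3 call was kept after scaling to a common median and with no further normalization. Ablim1, an actin-binding LIM protein gene, read 6.85 to 7.11 against 6.28 to 6.72, also without overlap (-0.49 ± 0.06, limma adjusted p = 1.04e-05). Myh6, whose promoter is the one named for the transgene, ran from 12.12 to 12.21 on FVBN arrays and from 11.86 to 12.15 on tTA arrays. Its difference of -0.11 ± 0.04 was not called (limma adjusted p = 0.0816). Myh7, the slower beta myosin heavy chain gene of the fetal heart, was at -0.15 ± 0.16 (limma adjusted p = 0.670).

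Fetal and hypertrophy genes went in both directions. Of 19 tested, 2 were higher (Acta1 and Uchl1) and 3 lower (Acta2, Nppb and Fhl1), with a median of -0.0321. Nppb, the gene of B-type natriuretic peptide, which rises in a stretched or overloaded ventricle, read 10.33, 11.12 and 11.35 on FVBN arrays and 9.55, 10.32 and 10.85 on tTA arrays. The genotypes overlapped, with FVBN control array 8177 among the tTA values. The difference was -0.66 ± 0.18 (limma adjusted p = 0.0322), -0.32 without Doxy and -0.90 with it. Nppa, the gene of atrial natriuretic peptide, was at -0.22 ± 0.10 and not called (limma adjusted p = 0.225). The Nppb call was lost without any of 8 arrays (8182, 8338, 8340, 8341, 7399, 7485, 7486 and 7488), and 0 genes of the list were called with the beta-actin ratio in the model. The list had 1 higher gene without array 8177, where Uchl1 was not called, and 1 lower gene without any of the arrays 8182, 8338, 8341, 7485, 7486 and 7488. Corin, the gene of the protease that cleaves the natriuretic peptide precursors, read 7.12 to 7.67 on FVBN arrays and 6.62 to 7.07 on tTA arrays, without overlap (-0.56 ± 0.08, limma adjusted p = 9.58e-05).

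Genes of energy use were called in 1 direction in 3 lists. Lower were 12 of 61 tested oxidative phosphorylation genes (19.7%, median -0.0572), 6 of 23 genes of the tricarboxylic acid cycle (26.1%, median -0.0931) and 5 of 13 genes of a ketone body and amino acid list (38.5%, median -0.0828), and none was higher. Over all tested genes 3.99% were lower. The last list also holds creatine kinase genes, and its lower genes were Oxct1, Bckdhb, Ckmt2, Ckm and Gatm. Sdha and Sdhb, subunits of succinate dehydrogenase, stand in both of the first lists. The differences were modest. Cox6a1, a subunit of cytochrome oxidase, was at -0.33 ± 0.06 (limma adjusted p = 0.00106), Ndufa6, a subunit of complex I, at -0.29 ± 0.05 (limma adjusted p = 0.000342), and Cs, citrate synthase, at -0.26 ± 0.05 (limma adjusted p = 0.0019).

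Oxct1, the enzyme with which heart muscle activates ketone bodies, read 9.71, 9.77 and 9.85 on FVBN arrays and 8.94, 9.29 and 9.61 on tTA arrays, without overlap. Its difference was -0.49 ± 0.08 (limma adjusted p = 0.000353). Bckdhb, a subunit of the dehydrogenase of branched-chain amino acid breakdown, was at -0.39 ± 0.06 (limma adjusted p = 6.46e-05), and FVBN array 8341, at 7.04, lay among the tTA arrays. Ckmt2, the mitochondrial creatine kinase gene, was at -0.23 ± 0.04 (limma adjusted p = 0.000889).

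The calls of these 3 lists moved with the beta-actin ratio and with the FVBN control arrays. With the ratio as a covariate none of the oxidative phosphorylation or tricarboxylic acid cycle genes was called. In the ketone body and amino acid list 3 genes were, Bckdhb and Ckmt2 among them. Cs, Idh3a, Cox6a1, Ndufa6, Oxct1 and Ckm then had limma adjusted p of 0.153, 0.0801, 0.111, 0.0534, 0.0801 and 0.458. The oxidative phosphorylation count was 5 without array 8182 and 7 without array 8177. The tricarboxylic acid cycle list had 1 higher gene without any of the arrays 8340, 7288 and 7424.

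Ces1d, a carboxylesterase gene whose product splits stored lipid in fat and other tissues, had the largest fall. The probe set with the larger difference read 6.70, 7.28 and 7.56 on FVBN arrays and 5.16, 5.83 and 6.37 on tTA arrays, without overlap. The difference was -1.54 ± 0.17 (limma adjusted p = 1.96e-05), or 2.90-fold lower, -1.74 without Doxy and -1.39 with it. A brighter probe set gave -1.03 ± 0.11 (limma adjusted p = 4.85e-06). Carboxylesterase genes are a family of similar sequences, so the probe sets may read more than Ces1d.

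Fatty acid use had 2 higher and 5 lower genes among 32 tested, with a median of -0.0221. Hadh and Echs1, which catalyse neighbouring steps of beta-oxidation, differed in direction, at 0.34 ± 0.07 (limma adjusted p = 0.00529) and -0.32 ± 0.05 (limma adjusted p = 0.000314). With the beta-actin ratio in the model 1 was higher and 1 lower, Ces1d, and neither Hadh (0.0905) nor Echs1 (0.0526) was called by its limma adjusted p. The lower count was 2 without array 8338 and 3 without any of the arrays 8177, 8182, 9310, 7399 and 7488, and the higher count was 1 without array 8182.

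Glycolysis genes split evenly, 3 higher and 3 lower of 18 tested (median -0.00851). Ldha, the muscle-type lactate dehydrogenase subunit, read 10.92 to 11.08 on FVBN arrays and 11.15 to 11.35 on tTA arrays, without overlap (0.26 ± 0.04, limma adjusted p = 4.34e-05). Ldhb, the heart-type subunit, fell by 0.21 ± 0.04 (limma adjusted p = 0.000852). Pfkl, a phosphofructokinase subunit, and Tpi1, triosephosphate isomerase, rose by 0.25 ± 0.05 and 0.24 ± 0.04 (limma adjusted p = 0.00138 and 0.000736). Hk2, the insulin-responsive hexokinase gene of muscle, fell by 0.32 ± 0.06 (limma adjusted p = 0.000785). Once the beta-actin ratio was added, 3 genes of the list were called higher and 0 lower.

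In the glycogen list 2 of 12 genes were higher and 1 lower (25% called, against 9.17% over all tested genes, median 0.0557). Pygb, a glycogen phosphorylase gene, read 8.45, 8.83 and 8.92 on FVBN arrays and 7.84, 8.08 and 8.43 on tTA arrays. The ranges met but did not overlap, and the difference was -0.70 ± 0.07 (limma adjusted p = 1.71e-06), with the call kept when the beta-actin ratio was added. Gyg and Pgm1, for glycogenin and a phosphoglucomutase, were higher by 0.21 and 0.17. Neither was called once the beta-actin ratio was added or without array 8182, and the higher count was 1 without any of the arrays 8337, 8341, 7485 and 7488.

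Other large changes fell outside these groups. Lclat1, an acyltransferase gene of cardiolipin and related lipids, read 8.31, 8.73 and 8.83 on FVBN arrays and 7.66, 7.83 and 8.19 on tTA arrays, without overlap (-0.81 ± 0.08, limma adjusted p = 1.22e-06). Gnb3, a G protein beta subunit gene, read 6.42, 6.55 and 6.68 against 6.95, 7.17 and 7.56, also without overlap (0.64 ± 0.08, limma adjusted p = 2.91e-05). Ivns1abp, a kelch repeat gene, was at -0.71 ± 0.10 (limma adjusted p = 7.82e-05), with tTA values from 8.06 to 8.73 that reached into the FVBN range of 8.66 to 9.22. These 3 kept their call with the beta-actin ratio in the model.

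Ptdss1, a phosphatidylserine synthase gene, Hagh, a glyoxalase gene, and Spsb1, an adaptor of a ubiquitin ligase, were higher by 0.47 ± 0.07, 0.40 ± 0.06 and 0.50 ± 0.10 (limma adjusted p = 0.000122, 0.000107 and 0.00291). All 13 tTA arrays lay above all 6 FVBN arrays for each of them. The probe set linked to Wdr92 was higher by 0.72 ± 0.17 (limma adjusted p = 0.0147), but 11 of 13 tTA arrays lay above the FVBN mean of their Doxy stratum. Its tTA values from 10.20 to 11.82 overlapped most of the FVBN range of 10.11 to 10.99. Slc38a2, an amino acid transporter gene, and Cited2, a transcriptional coregulator gene, were at -0.63 ± 0.14 and -0.55 ± 0.13 (limma adjusted p = 0.00828 and 0.0117). Ptgds, whose enzyme makes prostaglandin D, was at -0.75 ± 0.20 (limma adjusted p = 0.0266) and Mid1ip1, a gene of lipid synthesis control, at -0.64 ± 0.16 (limma adjusted p = 0.021). Wdr92, Slc38a2, Cited2, Ptgds and Mid1ip1 overlapped between genotypes and lost their call with the beta-actin ratio in the model. Ptgds also lost it without any of the arrays 8338, 8340 and 8341, and Mid1ip1 without 8177 or 8182.

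Marker lists of the cell types that ventricular tissue can hold were counted the same way. In bulk tissue fewer cells of a type and less RNA per cell cannot be told apart. Endothelial markers had 6 lower and 1 higher of 21 tested (33.3% called, against 9.17% over all tested genes, median -0.0701). Their summed intensity ran from 4239 to 5035 on FVBN arrays and from 4209 to 4694 on tTA arrays, which overlap. Mcam, a cell adhesion gene, was at -0.24 ± 0.04 (limma adjusted p = 0.000942) and Vwf, the von Willebrand factor gene, at -0.31 ± 0.09 (limma adjusted p = 0.0459), while the water channel gene Aqp1 was at 0.35 ± 0.10 (limma adjusted p = 0.0332). A dimmer Vwf probe set gave -0.03 ± 0.04 and was not called (limma adjusted p = 0.774). The lower count was 3 without array 8182 or 7488 and 1 with the beta-actin ratio in the model, and the Aqp1 call was lost without any of 8182, 8337, 8338, 8340, 8341, 7486 and 7488 and under both other scalings. The Vwf call was lost without any of 13 arrays, 8177 among them, and neither Aqp1 (limma adjusted p = 0.254) nor Vwf (0.531) was called with the beta-actin ratio in the model.

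Smooth muscle and pericyte markers had 3 higher and 2 lower of 14 tested (median -0.0144). Tpm2 and Acta2 are the farthest of them in the opposite directions, and Myh11, a defining marker, was too dim to be tested. Without Tpm2 and Acta2 the summed intensity of the other 12 ran from 1593 to 1781 on FVBN arrays and from 1581 to 1731 on tTA arrays. Of the list, 3 were called higher and 0 lower with the beta-actin ratio in the model. Cardiomyocyte markers had 1 higher and 3 lower of 18 (median 0.00224), with sums of 51680 to 55640 and 49530 to 55640. The higher count was 0 without array 8177 or 8182, and the counts were 0 higher and 2 lower with the beta-actin ratio added. Fibroblast markers had 0 higher and 1 lower of 22 (median -0.0428), with 2 lower without array 8182 or 7311 and 0 lower with the beta-actin ratio added. Adipocyte markers had 1 higher (Cidea) and 2 lower (Scd1 and Lpl) of 8 tested (37.5% called, median -0.0125). Dropping 8182 or 8338 left 0 lower, as did adding the ratio. Dropping any of 8177, 8337, 8340, 8341, 7399, 7485, 7486 and 7488 left 1 lower. Skeletal muscle markers had 1 lower of 10 (Ckm), and nerve and Schwann cell markers 1 higher of 5 (Uchl1). Neither call remained when 8177 was dropped or the ratio was added.

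Macrophage and leukocyte markers had 1 higher and 2 lower of 16 (median -0.0477), with Ptprc, a marker of all leukocytes, too dim to be tested. The lower count fell to 0 once the beta-actin ratio was added or array 8182 was left out, and was 1 without any of the arrays 8337, 8338, 8340, 7399, 7485, 7486 and 7488. Lymphocyte markers, 9 tested, and red cell markers, 6 tested, had no calls in limma, and their counts at an unadjusted p below 0.05 were 0 and 2. Leaving out any of the arrays 7294, 9310, 9322, 7399 and 7424 gave 1 lower red cell marker. Summed red cell markers ran from 4843 to 5890 on FVBN arrays and from 2701 to 5614 on tTA arrays. Atrial markers had 2 higher of 9 tested (median -0.000965), Clu and Stard10. The Stard10 call was lost without any of the arrays 8182, 8337, 8340 and 7488, over all probe sets and with the beta-actin ratio in the model (limma adjusted p = 0.239). Without array 9310 or 7399, 1 atrial marker was called lower. The summed intensity of the atrial markers ran from 1246 to 1401 on FVBN arrays and from 1643 to 1841 on tTA arrays, and without Clu from 921.4 to 1015 and from 903.4 to 1112. The sex-linked markers with a probe set were too dim to be tested. Among them Xist ran from 4.06 over a median of 5.54 to 5.74 on FVBN arrays, and from 5.15 over 5.45 to 5.98 on tTA arrays. Its lowest FVBN value thus lay below every tTA value. Eif2s3y and Uty lay between 3.85 and 3.91 and Kdm5d between 4.14 and 4.47 on all arrays. Whether the groups differ in sex was not tested.

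**Figure D3:**
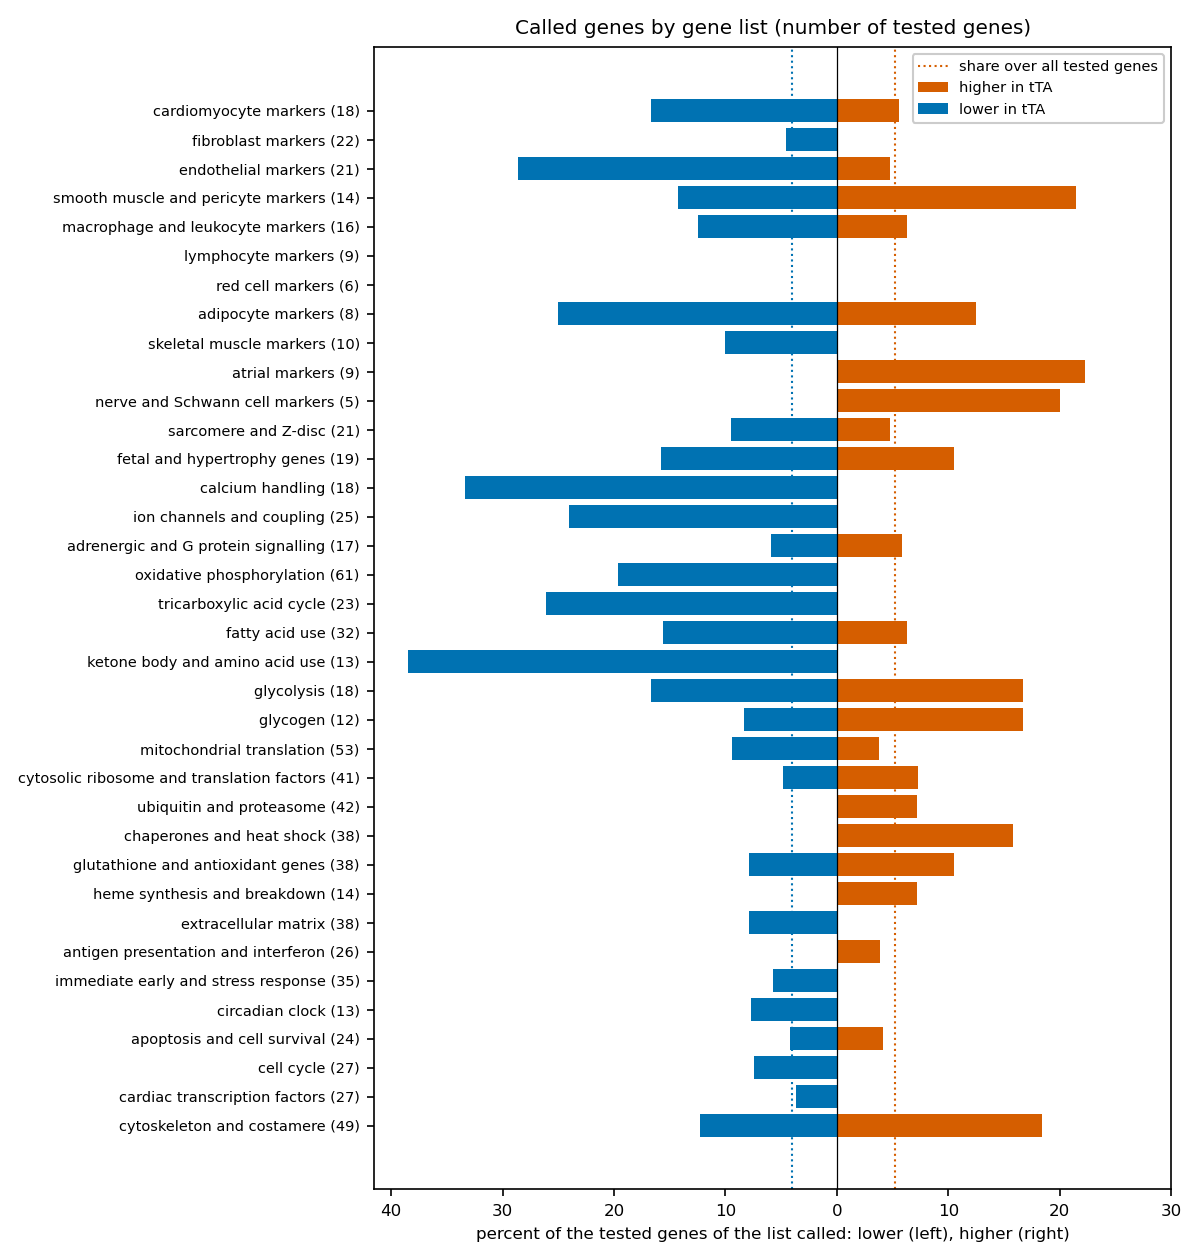
Bars give the percent of the tested genes of each list called lower (blue, to the left) and higher (orange, to the right), with the number of tested genes in brackets and dotted lines at the shares over all tested genes (3.99% lower and 5.18% higher). Calcium handling, coupling, oxidative phosphorylation and the tricarboxylic acid cycle carry calls on the lower side alone, as do lists with fewer calls such as extracellular matrix, while chaperones carry calls on the higher side alone.

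The remaining lists lay near the background or held calls in both directions. Mitochondrial translation had 2 higher and 5 lower of 53 (median -0.0313), cytosolic ribosome and translation factors 3 and 2 of 41 (median 0.011), and extracellular matrix 0 and 3 of 38 (median -0.0326). Without array 8177 these lower counts were 1, 1 and 5, and with the beta-actin ratio in the model 0, 1 and 0. The lower count of mitochondrial translation was 3 without any of the arrays 8182, 8338, 8340, 7288, 7310, 7424, 7485 and 7488, and its higher count was 4 without array 8177 or 9310. The translation factor list had 1 higher gene once the beta-actin ratio was added or array 8182 was left out, and 1 lower gene without any of the arrays 8182, 8337, 8341, 7424 and 7488. The translation factor calls under the other scalings numbered 0 higher and 1 lower. Heme synthesis and breakdown had 1 higher gene of 14, Alad, the enzyme of an early step of heme synthesis, at 0.39 ± 0.10 (limma adjusted p = 0.0174), and 1 lower gene without any of the arrays 7294, 9310, 9322, 7399 and 7424. Immediate early and stress response genes had 2 lower of 35, Dusp1, a phosphatase of MAP kinases, at -0.27 ± 0.05 (limma adjusted p = 0.000608), and Nfkbia, the inhibitor of NF-kappa-B, at -0.21 ± 0.05 (limma adjusted p = 0.0122). Nfkbia was not called with the beta-actin ratio in the model (limma adjusted p = 0.257), and 4 genes of the list were called lower without array 9322. Cell cycle genes had 2 lower of 27, and 1 lower without any of the arrays 8182, 8337, 8341, 7399, 7485, 7486 and 7488. Cardiac transcription factors had 1 lower of 27, Ppara, a nuclear receptor gene of fatty acid use (-0.16 ± 0.05, limma adjusted p = 0.0478), whose call was lost without any of 13 single arrays, while 2 genes were lower without array 7486. The circadian clock had 1 lower of 13, the repressor gene Nr1d1 (-0.29 ± 0.06, limma adjusted p = 0.00387), with 2 lower without any of the arrays 8338, 7294 and 7424. Antigen presentation and interferon had 1 higher of 26. These 4 lists had 0 calls in limma with the beta-actin ratio in the model, where Nr1d1 had an adjusted p of 0.133 and Ifi35, the interferon-induced gene called higher, one of 0.0592.

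The strata share no array, so each genotype difference rests on its own arrays. In the model with 4 group means the spread was estimated over all 19 arrays, so the calls of the strata are not independent. Without Doxy 208 probe sets were called in it (2.79%), comparing 8 tTA with 2 FVBN arrays, and with Doxy 437 (5.86%), comparing 5 with 4. Fits on the arrays of each stratum alone called 150 and 425. Clu (1.15 and 1.08), Lgals1 (0.63 and 0.65), Pygb (-0.77 and -0.66) and Ivns1abp (-0.77 and -0.67) had similar differences in both. Larger gaps between the strata were seen for Acta1 (1.68 and 0.80), Acta2 (-1.27 and -0.66), Mid1ip1 (-1.06 and -0.33), Corin (-0.78 and -0.40) and Nppb (-0.32 and -0.90). None of these gaps passed the interaction test over all probe sets, whose unadjusted p were 0.0228, 0.0331, 0.0225, 0.01 and 0.119. Of the 7453 tested probe sets, 1088 had an unadjusted limma interaction p below 0.05, more than that threshold gives when no difference exists. The additive model assumes an equal genotype difference in both strata, and the few interaction calls do not show that it is equal. Without array 8177 or 8182, the only FVBN control arrays, the count without Doxy was 54 or 63.

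**Figure D4:**
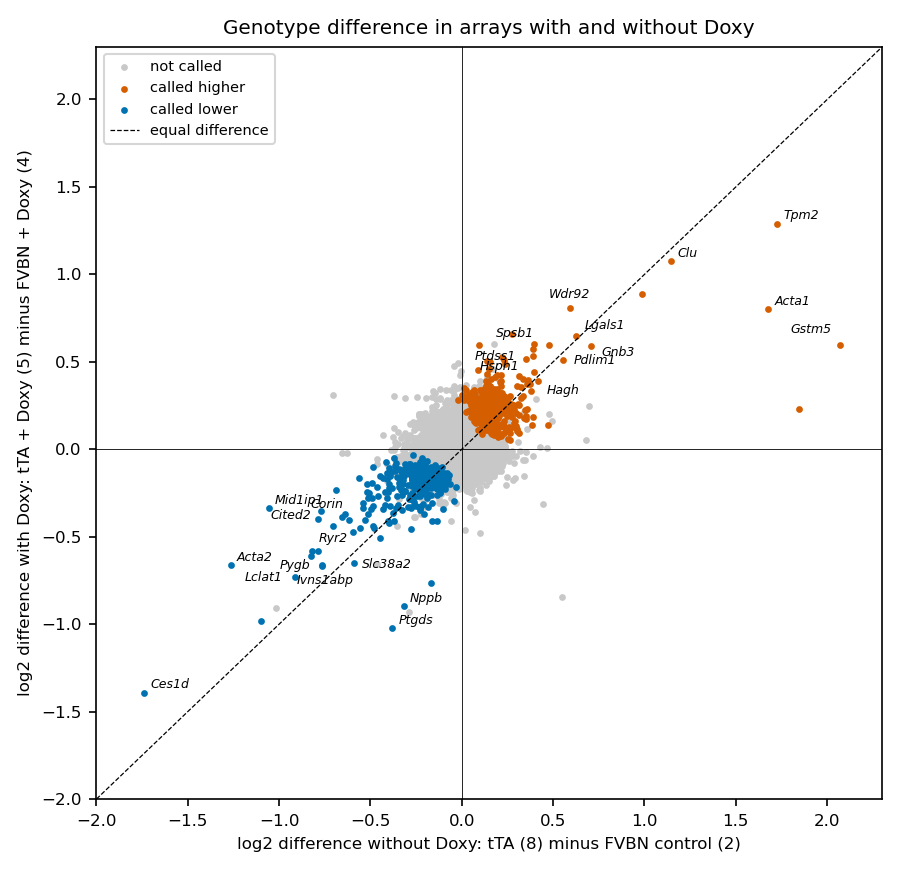
Each point is 1 tested probe set, with the log2 genotype difference without Doxy on the x axis and with Doxy on the y axis; the dashed line marks equal differences. Clu and Lgals1 lie on the line, and Gstm5 lies far to the right of it, at 2.07 and 0.60.

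The count of calls depended on the model and on single arrays. It ran from 456 without array 8182 to 682 without array 9310 when each array was left out in turn. With the beta-actin ratio in the model 289 probe sets were called, 212 higher and 77 lower, so that the share of higher calls went from 55.6% to 73.4%. The probe sets named by the rule numbered 90, and 86 of them were called. In every setting run on both strata 34 of the 86 kept the call, 51 lost it with the beta-actin ratio and 26 lost it when at least 1 array was left out. Losing the call with the ratio did not always mean a smaller difference. Nppb went from -0.66 to -0.87 with it, while Acta1 went from 1.17 to 0.71. All 86 kept their direction in every setting, other probe sets of the same gene apart. In the exact permutation test of the genotype label within Doxy strata, 33 of the 90 named probe sets reached the smallest p the test can give, 0.00018, and since these were named for their size, that is a description.

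**Figure D5:**
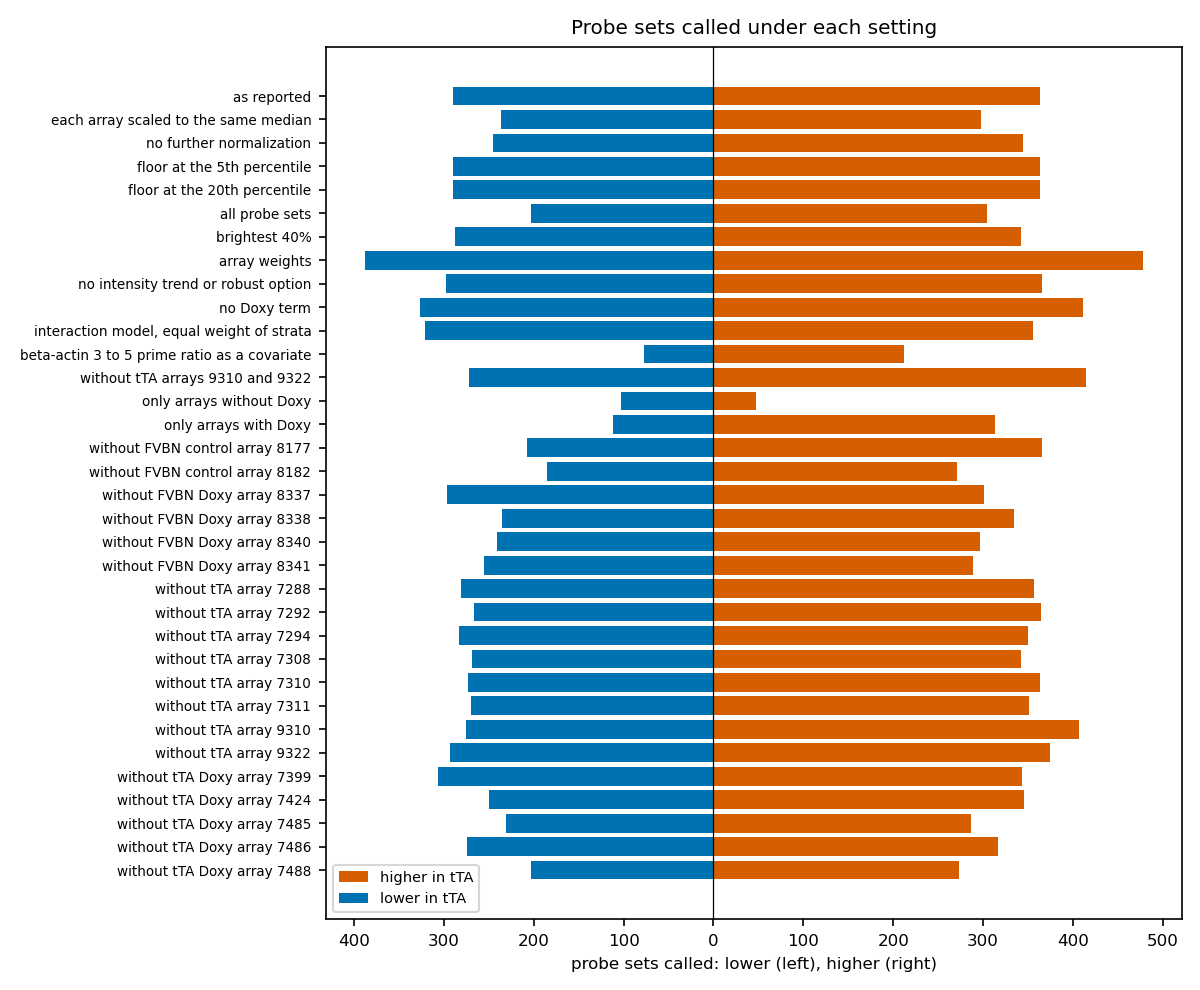
Bars give the number of probe sets called lower (blue, to the left) and higher (orange, to the right) under each setting, with the reported model at the top. The beta-actin covariate (77 lower, 212 higher) and the fits on arrays without Doxy (103 and 47) or with it (112 and 313) change the balance most.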

How the data were processed

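Affymetrix mouse arrays of ventricular RNA were analysed from intensity values on a linear scale, 1 per probe set and array, deposited by the authors; how they were summarised and normalized is not given in the sources used here. Of 12488 probe sets 66 controls were left out. Platform annotation linked 10833 of the other 12422 to 1 gene, 396 to several and 1193 to none, and 10817 were matched by gene number to RefSeq. Values were quantile normalized over the 19 arrays, raised to a floor of 14.37 (10th percentile) and log2 transformed. The brightest 60% by mean entered a fit in limma 3.58.1 (R 4.3.3) with genotype and Doxy as terms, intensity trend and robust moderation. The 4-group model gave the strata and the interaction.

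Named genes were the 12 largest called differences per direction among probe sets linked to 1 gene that were bright in at least 1 genotype. Bright meant a genotype average over log2 6.849, the middle level of the tested probe sets, and for tTA the 8 arrays without Doxy were averaged. A named gene can therefore be dimmer in the other genotype, as Tpm2 is in FVBN (6.62) and Ces1d in tTA (5.81). Also named were up to 3 called members with the largest differences from each list, and Myh6, Myh7, Nppa, Nppb, Acta1, Atp2a2 and Clu. Other genes given with values are further list members, chosen after their values were seen. The 37 lists held 1189 genes, 945 with a probe set and 780 tested, each by its brightest probe set. Members and lists were chosen with earlier results of these data known. On simulated data with 50 changes of each size among 7453 probe sets, the fit recovered 8% of log2 changes of 0.1, 76% of 0.2, 90% of 0.3 and 98% of 0.5, with 7 false calls. The simulated noise was independent between probe sets and arrays, with no Doxy effect and nothing shared within an array. It therefore cannot give the number of false calls among the 653. Promoters came from RefSeq (GRCm38.p6), which held 72 of the 88 named genes. Plots used Python 3.11.15 and matplotlib 3.10.9.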

Additional observations from a re-analysis of the deposited data

Results flagged for a closer look

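Within the groups of 4, 5 and 8 arrays, each named probe set and each control ratio was tested for an outlying array. Of these 276 tests 10 had an array set apart by Dixon's criterion, where chance gives about 1 in 20. In tTA without Doxy these were Cited2 on array 9322 (log2 7.07, against 6.2 to 6.57 on the others), Cidea on 7308 (7.38, against 7.02 to 7.14), Hk2 on 7311 (8.96, against 9.15 to 9.32), Ifi35 on 7288 (6.79, against 6.34 to 6.54), Mcm2 on 7311 (6.42, against 6.57 to 6.66) and Nppa on 9310 (8.70, against 7.82 to 8.12). In tTA + Doxy they were Lyz2 on 7424 (7.06, against 6.79 to 6.86), Cidea on 7486 (7.53, against 7.24 to 7.29) and Nr1d1 on 7486 (7.63, against 7.23 to 7.34). In FVBN + Doxy it was Ckmt2 on 8341 (11.34, against 11.45 on each of the others).

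The genotype difference of Gstm5 at its brightest probe set was smaller with Doxy than without, by -1.614 on the log2 scale in the limma interaction test (adjusted p = 0.0108).

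On the array with no group, the deposited intensity of Spsb1 was 107.8, above the FVBN range of 69.76 to 97.45.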

How the results depend on the processing

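The 653 genotype calls numbered 289 with the beta-actin ratio added to the model, 150 on the arrays without Doxy alone (47 higher, 103 lower), 425 on the arrays with Doxy alone (313 higher, 112 lower) and 456 to 682 with each array left out. They numbered 534 after scaling arrays to a common median, 589 with no further normalization, 507 over all probe sets, 630 over the brightest 40%, 866 with array weights, 663 without trend and robust moderation, 738 without the Doxy term, 677 as the equal-weight mean of the strata and 686 without arrays 9310 and 9322. Floors at the 5th and 20th percentile gave 653, as tested probe sets lie above them. The interaction gave 6 calls under either other scaling, 0 in limma over all probe sets (1 at 7453) and 0 to 4 with each array left out. In the 4-group model the count without Doxy ran from 54 to 239 and that with Doxy from 239 to 492 with each array left out. The latter was 282 over all probe sets. Among tested probe sets, other probe sets of 4 named genes had the opposite sign, limma adjusted p in brackets: Pdlim1 -0.0699 (0.590), Ckm 0.022 (0.804), Aqp1 -0.00482 (0.987) and Scd1 0.0094 (0.971). Other probe sets with the same sign but no call included those of Vwf, -0.0298 (0.774), Slc8a1, -0.139 (0.0812), Gyg, 0.148 (0.408), Nfkbia, -0.231 (0.0757), and Ptgds, -0.664 (0.0532). The cause of these shifts was not tested. Labels give each array its own number and no pairing, so no paired analysis was possible because the groups share no replicate number.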

Other observations

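Some called genes lie outside the naming rule and were chosen after their values were seen. Tnnt1, the slow skeletal troponin T gene, fell by 0.46 ± 0.05 in tTA (limma adjusted p = 7.52e-06), with no overlap between genotypes, -0.48 without Doxy and -0.44 with it. Lrg1, a secreted leucine-rich glycoprotein gene, fell by 0.48 ± 0.07 (limma adjusted p = 5.41e-05), and Acss1, a mitochondrial acetyl-CoA synthetase gene, fell by 0.46 ± 0.08 (limma adjusted p = 0.000403). Sox4, a transcription factor gene of development, fell by 0.43 ± 0.06 (limma adjusted p = 1.81e-05). Faap20, a Fanconi anaemia pathway gene, rose by 0.52 ± 0.07 (limma adjusted p = 9.35e-05).

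The array titled Cardiac tTA expression has no group, and its deposited intensities are given beside the ranges of the other arrays. Tpm2 read 87.61, where FVBN arrays ran from 85.17 to 138.8 and tTA arrays from 239.4 to 364.2. Clu read 396.6, where the ranges were 328 to 427.3 and 625.6 to 889.8. Ces1d read 169.2, where they were 104 to 190.7 and 35.98 to 82.8, and Ryr2 read 675.5, where they were 576.3 to 837.2 and 383.7 to 519.2. Acta2 read 271.5, below the FVBN range of 292.7 to 452.3 and within the tTA range of 145.8 to 372.6, and Pdlim1 read 311.3, below both ranges (330 to 390.4 and 445.2 to 627.1). Nppb read 1266, below the FVBN range of 1368 to 2656 and within the tTA range of 740.5 to 1796. Spsb1 lay above the FVBN range. The other genes among the 12 largest called differences per direction lay within the FVBN range, which for some overlaps the tTA range.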
